A study of Homo sapiens with 4 samples.

Results

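Very wide CUT&RUN peaks, those of 3500 bp or more, were selected on their width alone from the peak lists of wild-type BRG1 and of BRG1 without its helicase/SANT-associated (HSA) domain. They numbered 2820 of the 49583 peaks in all, 1448 of 24212 in the iBRG1 list and 1372 of 25371 in the i∆HSA list. Both constructs carried a V5 tag and were switched on with doxycycline for 24 h in stable clones of SW-13, an adrenocortical carcinoma line with neither BRG1 nor BRM, so that each construct was seen in a clonal line. Chromatin of 300000 cells per sample was cut where a V5 antibody tethered the nuclease. Each construct had 2 biological replicates but 1 peak list, so no value below has a replicate error and no test was made between the constructs. Values of the very wide peaks are set beside those of all peaks of the same list, and intervals given with shares and medians are 95% intervals for counting error only.

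BRG1 and BRM are the alternative ATPases of the SWI/SNF complexes, which slide and evict nucleosomes at promoters and enhancers. The HSA domain of BRG1 is the surface on which actin and actin-related subunits assemble, next to the ATPase domain. AP-1, the dimer of FOS and JUN family proteins, is known to work with SWI/SNF at enhancers. In CUT&RUN the released fragments mark where the tagged protein lay, and a peak caller joins neighbouring enriched stretches into a peak.

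Stretches of 2 kinds from loci that were very wide in both lists are shown in GRCh37 (hg19), because the results below turn on CpG content and AP-1 motifs. They were picked for lying before a coding start or for holding an AP-1 match, and the loci themselves were not sorted into kinds. The first kind is the 120 bases before the annotated start of a coding gene, given on the strand of the gene, with SP/KLF matches (GGGCGG or its reverse complement) in capitals. They are from AGBL3 (chr7:134671139-134671258), a carboxypeptidase that trims glutamates from tubulin tails, from the zinc finger gene ZNF335 (chr20:44600843-44600962) and from ITPK1 (chr14:93582271-93582390), an inositol phosphate kinase. The ZNF335 stretch held no match of the motifs marked, and the 3 stretches held 8, 8 and 19 CpG in that order.
AGBL3: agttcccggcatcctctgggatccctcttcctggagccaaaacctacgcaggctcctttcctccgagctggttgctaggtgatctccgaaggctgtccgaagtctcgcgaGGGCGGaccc
ZNF335: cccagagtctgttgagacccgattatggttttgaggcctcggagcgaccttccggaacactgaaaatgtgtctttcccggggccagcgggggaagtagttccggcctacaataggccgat
ITPK1: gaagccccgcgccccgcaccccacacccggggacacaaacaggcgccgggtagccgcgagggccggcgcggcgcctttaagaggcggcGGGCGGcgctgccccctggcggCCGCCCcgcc

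The second kind is an intronic or intergenic stretch of 120 bases around an AP-1 match (TGACTCA or TGAGTCA), shown on the plus strand with AP-1 matches in capitals, and no TEAD match (GGAATG) lay in them. They lie in the locus of ZDHHC11 (chr5:857176-857295), in an intergenic stretch whose nearest coding start is EPHA6 (chr3:95469358-95469477) and in the locus of CNKSR3 (chr6:154731824-154731943). Each of the 3 stretches held 1 CpG.
ZDHHC11: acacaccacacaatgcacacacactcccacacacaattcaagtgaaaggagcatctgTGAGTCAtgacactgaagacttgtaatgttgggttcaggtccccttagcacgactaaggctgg
EPHA6: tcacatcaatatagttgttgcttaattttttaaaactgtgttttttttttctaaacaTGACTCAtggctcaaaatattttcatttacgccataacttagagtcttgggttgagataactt
CNKSR3: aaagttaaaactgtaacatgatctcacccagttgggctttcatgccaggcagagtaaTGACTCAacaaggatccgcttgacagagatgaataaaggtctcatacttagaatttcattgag

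Very wide peaks were the far end of a smooth fall in numbers with width, with no gap or second mode at the threshold. Their median width was 4009 bp in iBRG1 (quartiles 3730 and 4467) and 3959 bp in i∆HSA (3702 and 4360), against 1321 and 1318 bp over all peaks. They covered 6.10 Mb in iBRG1, 16.2% of the bases in that list, and 5.67 Mb in i∆HSA, 14.5%. The narrowest members were 3501, 3501 and 3503 bp wide in iBRG1 and 3500, 3500 and 3502 bp in i∆HSA. Those of iBRG1 lay between genes 436449 bp from the BTBD3 start, at the CSTF1 and AURKA starts, and between genes 98773 bp from PHF8. Those of i∆HSA lay at C1RL, at EXT2 and 47196 bp from the C3orf85 start. The widest peaks left out were 3498, 3498 and 3497 bp in iBRG1 (GTF2H5, TLK1 and GTPBP3) and 3499 bp for each of the 3 in i∆HSA (TESK1, FAM184A and ANXA5).

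**Figure D1:**
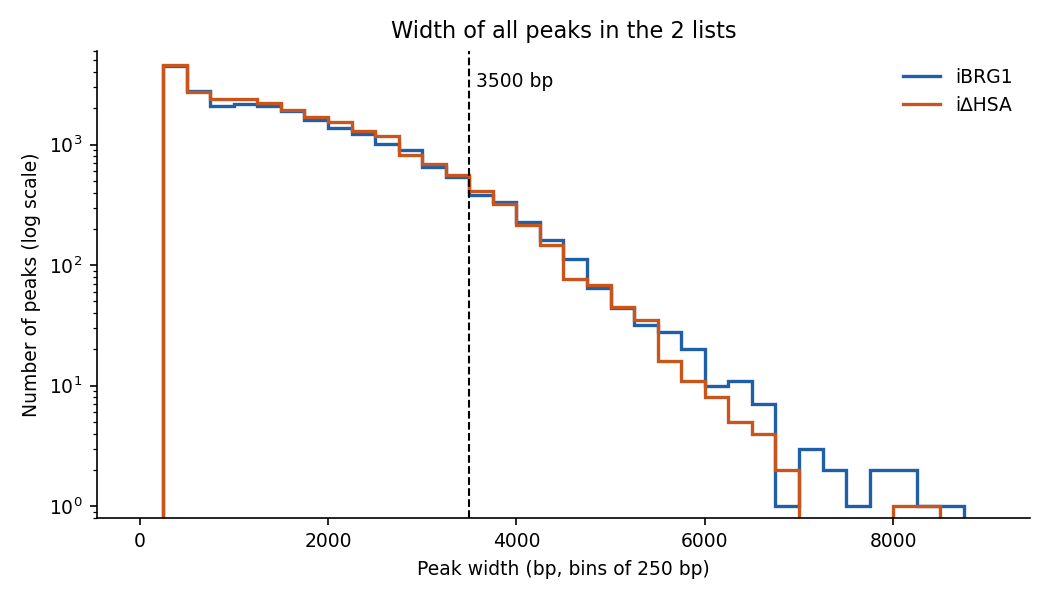
Number of peaks (log scale) in 250 bp classes of width (bp) for iBRG1 (blue) and i∆HSA (orange). The dashed line marks 3500 bp, past which lie 1448 iBRG1 and 1372 i∆HSA peaks, and both curves fall through it without a break.

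The score of a peak, a whole number of unstated scale that came from the same call as the width, was above that of all peaks at the median but not above that of somewhat narrower peaks. Its median was 3 (interval 3 to 4) in very wide iBRG1 peaks against 2 in all iBRG1 peaks, and 5 (interval 5 to 5) against 4 in i∆HSA. In each 500 bp class from 2000 to 3500 bp the median was 4 in iBRG1 and 5 in i∆HSA. The highest score of a very wide peak was 54 in iBRG1, where the list reached 180, and 89 in i∆HSA, where it reached 875. The very wide peaks were thus not the strongest peaks of either list, and these values are a description of the peaks that the width chose.

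The widest iBRG1 peak, 8583 bp with a score of 4, spanned chr21:30391178-30399760 and held the starts of RWDD2B and of USP16, a deubiquitinase of histone H2A. These genes point away from each other, and the starts of their canonical transcripts lay 5319 bp apart inside the peak. Next came an 8443 bp peak within SLC24A4, an exchanger of sodium, calcium and potassium ions, and an 8241 bp peak over the paired starts of SWT1 and TRMT1L. The others of the 10 widest iBRG1 peaks were 7230 to 8035 bp wide and lay at or nearest to PCDH10, LRRC1, FUT6, DIP2B, FAM172A, PDSS1 and TRIM9. None of these 10 overlapped an i∆HSA peak. The peak near PCDH10, whose start was 1180271 bp away, had a near-identical copy elsewhere in the genome, so its reads may have come from either place.

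The widest i∆HSA peak, 8362 bp with a score of 5, spanned chr1:202138424-202146785, 11889 bp from the start of the phosphatase gene PTPN7, and met no iBRG1 peak. The second, 8215 bp with a score of 24, covered the shared promoter of OIP5 and NUSAP1, both of which encode proteins of the dividing cell, and an iBRG1 peak of 770 bp covered 9.37% of it. The third, 6830 bp, lay over the start of the xylosyltransferase gene XXYLT1. The remaining 7 of the 10 widest were 6455 to 6769 bp wide, at or nearest to ADGRL2, GORASP2, BRWD3, STK32C, ERGIC2, ECPAS and MED7. Of the 10, those at OIP5, GORASP2, STK32C and MED7 overlapped an iBRG1 peak.

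The highest-scoring very wide iBRG1 peaks all overlapped an i∆HSA peak. They were an intronic peak of SIPA1L1, a regulator of Rap GTPases (chr14:71838130-71842569, score 54), an intergenic peak near ZC3H15 (36), the promoter of SMG1, a kinase of nonsense-mediated decay (35), an intergenic peak near the collagen gene COL5A2 (32) and an intronic peak near LHFPL6 (32). An i∆HSA peak covered 35.2% (SMG1) to 81.3% (ZC3H15) of each. In i∆HSA, the highest scores were 89 in an intron of AP1S3 (chr2:224562287-224567138) and 89 near the growth factor gene NRG1. Next were 83 at a site whose nearest coding start was CXADR, 81 at an intergenic site 121651 bp from the USP9X start and 65 at ADGRG6. The AP1S3 and NRG1 peaks were covered by iBRG1 peaks for 59.5% and 77.3% of their length, and the other 3 met no iBRG1 peak.

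**Figure D2:**
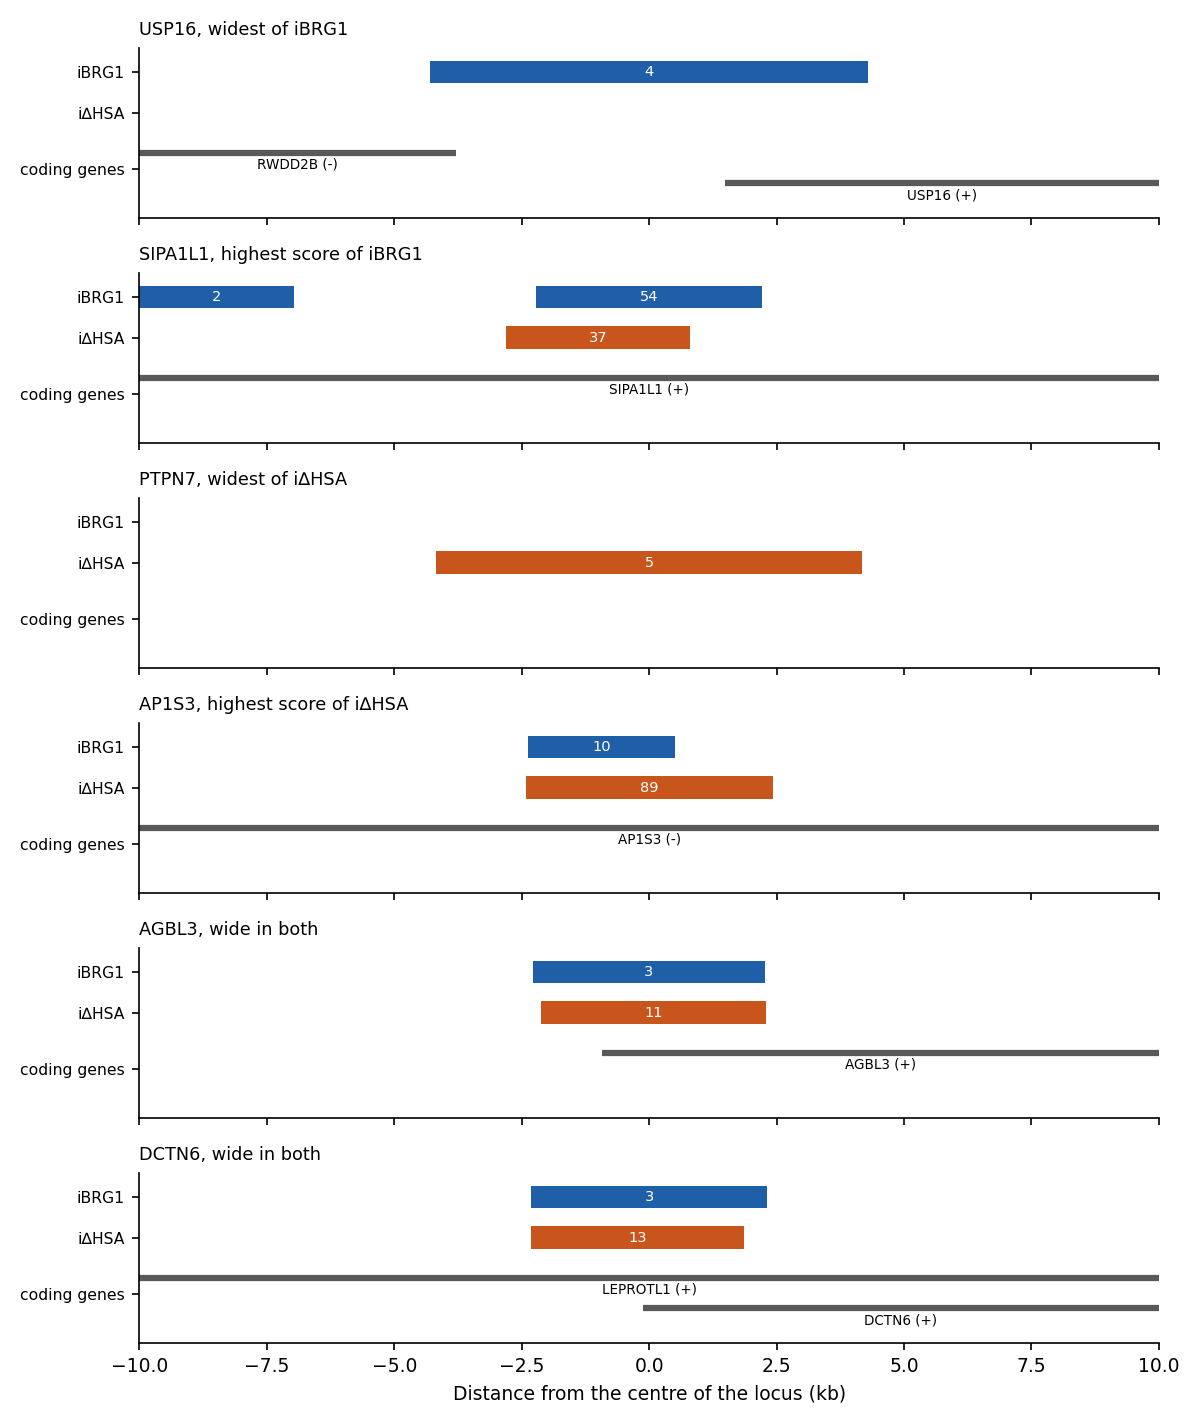
Peaks of iBRG1 (blue) and i∆HSA (orange) and protein-coding genes (grey, with strand) within 10 kb of the centre of 6 named loci, by distance in kb, with the score of each peak in white. The widest peak of each list stood alone, whereas the highest-scoring and the doubly wide loci carried a peak of both lists.

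Very wide peaks lay at gene starts more often than peaks at large. The midpoint was within 1 kb of an annotated transcript start, here called a promoter, for 324 very wide iBRG1 peaks, or 22.4% (interval 20.3 to 24.6), where all iBRG1 peaks gave 14.4%. In i∆HSA it was 372 peaks, or 27.1% (24.8 to 29.5), where all peaks gave 15.9%. Peaks under 500 bp gave 8.39% in iBRG1 and 8.78% in i∆HSA. In iBRG1 the share was highest at 3500 to 4000 bp, 24.0% (21.0 to 27.2), and was 21.6% at 4000 to 5000 bp and 18.2% (13.0 to 24.8) at 5000 bp or more. In i∆HSA these classes gave 25.1%, 29.4% and 29.7% (22.5 to 38.1). The i∆HSA share was the higher one in every width class but 500 to 1000 bp, where it was 11.6% against 12.1%. At 2000 to 2500 bp it was 21.0% against 16.8%. The difference between the lists was not tested.

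Because a wide peak also reaches more sequence, what it held rose further than what lay at its centre. A coding exon was touched by 29.3% of very wide iBRG1 peaks (12.6% of all) and 31.6% of very wide i∆HSA peaks (12.5% of all). The starts of at least 2 coding genes lay inside 66 iBRG1 peaks and 71 i∆HSA peaks, 4.56% and 5.17%, against 1.34% and 1.27% of all peaks. In 61 and 53 of these the starts were on both strands, as at USP16 and RWDD2B. Sets of 3 coding genes included CENPN, CMC2 and a gene without a symbol in iBRG1 and EME2, MRPS34 and NME3 in i∆HSA (3936 bp). NME3 and MRPS34 encode a nucleoside diphosphate kinase and a mitochondrial ribosomal protein, and these 3-gene peaks were picked out after their values were seen.

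Most very wide peaks were nevertheless away from gene starts. The midpoint was in an intron, of coding or long noncoding transcripts, for 52.2% of very wide iBRG1 peaks (53.9% of all) and 44.3% of very wide i∆HSA peaks (50.8% of all), and intergenic for 21.2% (27.9% of all) and 25.4% (29.9% of all). The median distance to a coding start was 22.0 kb in iBRG1 (32.4 kb over all peaks) and 17.5 kb in i∆HSA (27.0 kb).

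Where a very wide peak held the start of a single coding gene and was measured, it extended further into the gene than upstream of it. A coding start lay inside 355 very wide iBRG1 peaks, 66 of them with starts of at least 2 genes, and 228 were measured. In iBRG1 the median share of the peak lying downstream of the start was 63.4% (interval 57.2 to 69.9, 228 peaks), against 55.4% for all such iBRG1 peaks. In i∆HSA it was 55.7% (51.2 to 59.2, 266 peaks), against 46.5%. The larger part was downstream in 66.7% of the iBRG1 peaks (56.0% of all such peaks) and 57.5% of the i∆HSA peaks (45.6%).

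Base composition followed the same line. Median GC was 39.5% (39.0 to 39.9) in very wide iBRG1 peaks and 38.6% in all iBRG1 peaks, and 41.4% (40.8 to 42.0) in very wide i∆HSA peaks and 38.2% in all i∆HSA peaks. Windows of 1000 bp laid every 20 kb along the genome had a median of 39.9%. Within promoters the very wide peaks had much the same GC as all peaks, 47.9% and 47.7% in iBRG1 and 47.9% and 48.5% in i∆HSA. Within introns the medians were 38.0% and 37.8% in iBRG1, and 38.8% and 36.97% in i∆HSA.

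CpG sites were scarce in most members, as in most of the genome. The median ratio of observed to expected CpG was 0.225 in very wide iBRG1 peaks (0.194 in all) and 0.282 in very wide i∆HSA peaks (0.226 in all). In members with a promoter midpoint the medians were 0.537 and 0.507. A ratio over 0.6 was reached by 11.1% of very wide iBRG1 peaks (6.55% of all) and 9.11% of very wide i∆HSA peaks (8.38% of all). GC, whose extremes were picked out after their values were seen, was highest at GLIS2 in iBRG1, a promoter peak of 70.4% GC, and at NME3 in i∆HSA, 68.8%.

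Peaks of very low GC were seldom very wide. GC under 25% was found in 2 very wide iBRG1 peaks, 0.138% (0.888% of all), and 10 very wide i∆HSA peaks, 0.729% (4.64% of all). The lowest in i∆HSA was 9.61%, in a 4069 bp peak of score 63 with no coding start nearby, 1092677 bp from the start of the protocadherin gene PCDH7. iBRG1 peaks, the widest of 1418 bp, covered part of it. It held no AP-1 match.

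The AP-1 motif was less frequent at the centre of very wide peaks than at the centre of peaks at large. An AP-1 match, TGACTCA or its reverse complement TGAGTCA, lay in the central 1000 bp of 336 very wide iBRG1 peaks, or 23.2% (21.1 to 25.4), where all iBRG1 peaks gave 31.8%. In i∆HSA it was 267 peaks, or 19.5% (17.5 to 21.6), where all peaks gave 23.6%. The genome windows of 1000 bp gave 14.6%. The share was highest in iBRG1 peaks of 1500 to 2000 bp, 39.4%. It was 21.2% (18.0 to 24.8) at 4000 to 5000 bp and 27.9% (21.6 to 35.2) at 5000 bp or more. Peaks of 3000 to 3500 bp, just short of the threshold, gave 24.2% in iBRG1 and 21.5% in i∆HSA. Peaks under 500 bp gave 20.5% and 18.6%, so the lower share was not particular to very wide peaks.

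The lower share of iBRG1 was seen in each feature class, but not clearly in the intergenic class. It was 15.4% (11.9 to 19.8) of very wide promoter peaks against 23.4% of all promoter peaks, 24.3% (21.4 to 27.5) against 33.5% in introns, and 30.0% (25.1 to 35.3) against 32.7% between genes. In i∆HSA the shares were 11.8% (8.93 to 15.5) against 19.7% at promoters, 21.5% (18.5 to 25.0) against 25.2% in introns and 23.9% (19.7 to 28.6) against 23.0% between genes.

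Instead of gathering at the centre, AP-1 matches were spread over the whole width of a very wide peak. In iBRG1 peaks of 1000 to 2000 bp their density was 5.18 and 4.95 per 10 kb in the 500 bp on either side of the midpoint, and 1.32 to 1.39 per 10 kb at 1 to 2 kb to the left. In very wide iBRG1 peaks it stayed between 2.54 and 3.33 per 10 kb out to 2 kb on both sides, with 241 and 238 matches at 1 to 1.5 kb on the left and right and 205 and 186 in the bins next to the midpoint. Beyond 2.5 kb, outside most members, it was 1.12 to 1.53 per 10 kb. In i∆HSA the density was 2.16 to 2.76 per 10 kb out to 2 kb and 1.25 to 1.66 beyond 2.5 kb.

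With each peak split into 3 equal parts, 30.4% (28.3 to 32.6) of the AP-1 matches in very wide iBRG1 peaks fell in the middle part, against 38.0% over all iBRG1 peaks. In i∆HSA it was 35.0% (32.6 to 37.5), against 37.5%. Over their whole length, at least 1 match was present in 981 very wide iBRG1 peaks, 67.7% (41.2% of all), and 823 very wide i∆HSA peaks, 60.0% (31.3% of all), a count that rises with length. No match was present in 467 and 549, a single one in 504 and 490, 2 in 295 and 227, and 3 or more in 182 and 106. In peaks with at least 2, neighbouring matches lay a median of 908 bp apart in iBRG1 and 517 bp apart in i∆HSA. Without the 2 members with the most matches in each list, described next, these medians were 945.5 and 753 bp.

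**Figure D3:**
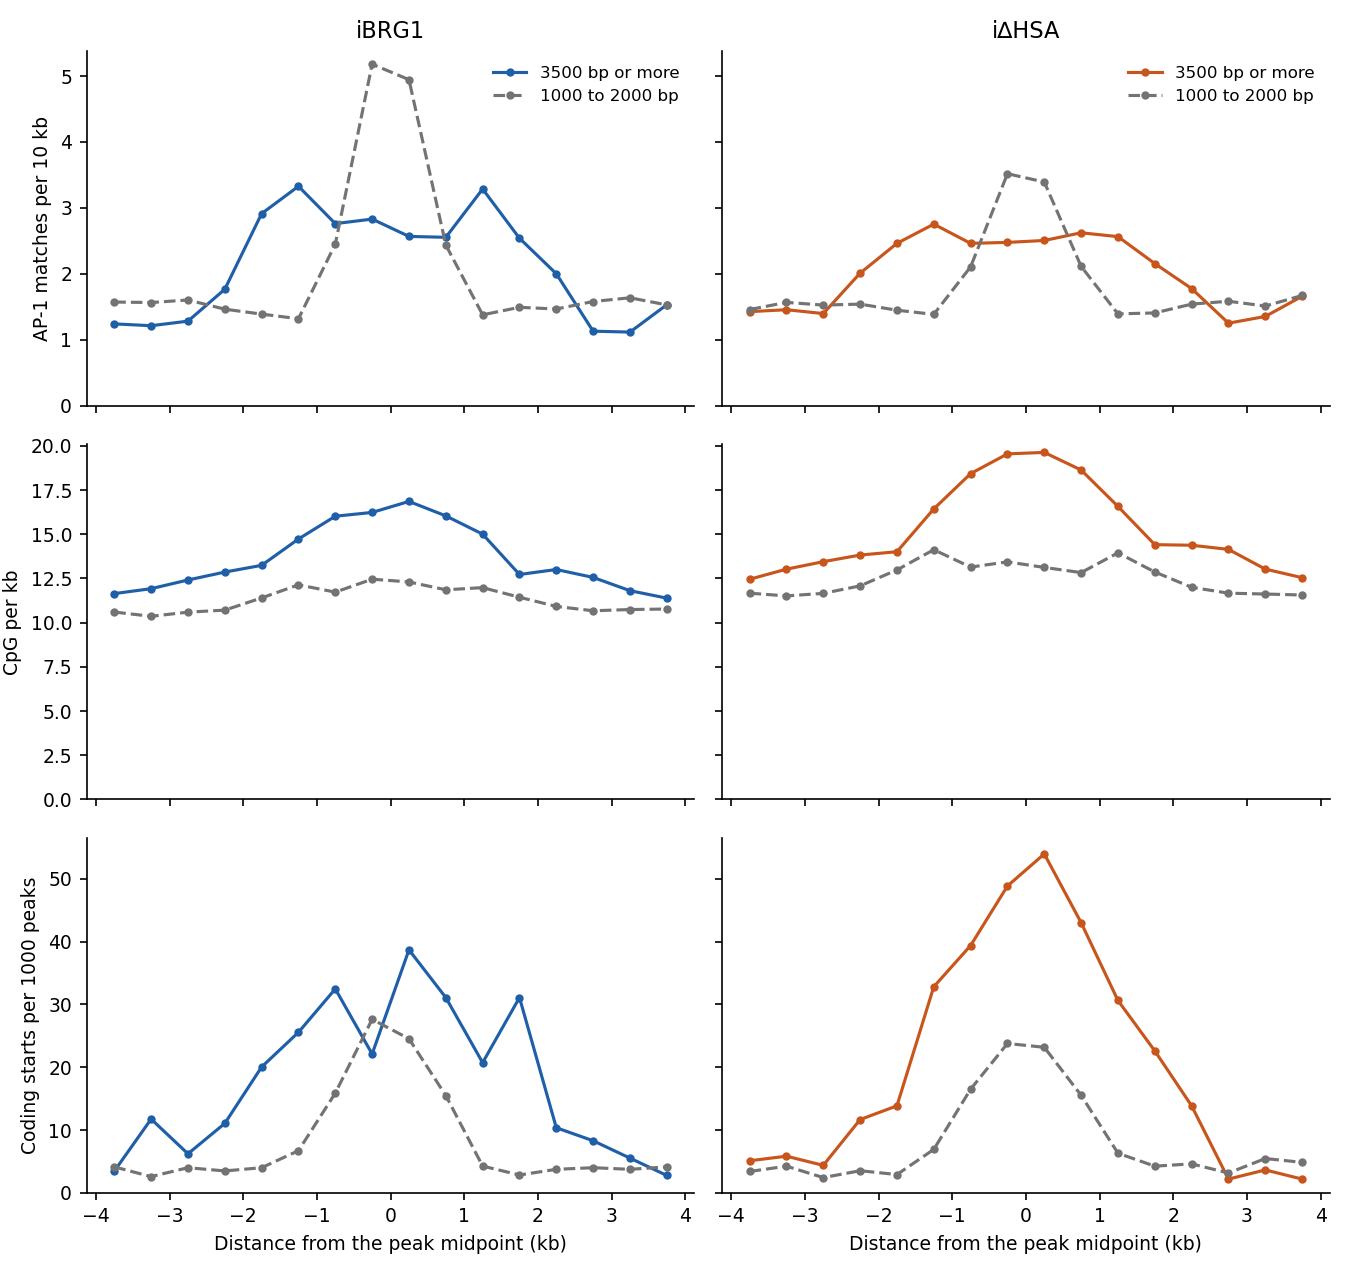
AP-1 matches per 10 kb (top), CpG per kb (middle) and coding starts per 1000 peaks (bottom) by distance in kb from the peak midpoint, in bins of 500 bp, for very wide peaks (solid) and peaks of 1000 to 2000 bp (dashed grey) of iBRG1 (left) and i∆HSA (right). AP-1 density forms a plateau across the very wide peaks, 2.54 to 3.33 per 10 kb in iBRG1, and a central spike of 5.18 per 10 kb in the narrower iBRG1 peaks.

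A few members held AP-1 matches in tandem repeats, and they were picked out for their counts. An i∆HSA peak of 5624 bp with a score of 37, in an intron of a noncoding transcript 308123 bp from the start of TRIML1, held 77 matches within 4282 bp. An i∆HSA peak of 4963 bp near GRHL1 held 22, and an iBRG1 peak of 4138 bp near DIP2C held 18. The repeat units are shown with AP-1 matches in capitals, for TRIML1 at chr4:189366050-189366169 and for DIP2C at chr10:310344-310463. Without the 2 members with the most matches in each list, AP-1 density over the whole peaks changed from 2.83 to 2.79 per 10 kb in iBRG1 and from 2.51 to 2.34 per 10 kb in i∆HSA, where all peaks gave 3.87 and 2.91.
TRIML1: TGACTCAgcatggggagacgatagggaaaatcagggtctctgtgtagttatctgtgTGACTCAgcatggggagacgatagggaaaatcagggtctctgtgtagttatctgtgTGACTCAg
DIP2C: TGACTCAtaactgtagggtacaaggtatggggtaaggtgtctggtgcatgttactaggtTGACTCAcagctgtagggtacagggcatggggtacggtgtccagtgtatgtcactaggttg

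Other motifs were counted in the central 1000 bp on both strands in the same way. The SP/KLF box GGGCGG, which binds zinc finger activators of CpG-rich promoters, was present in 20.7% of very wide iBRG1 peaks (14.9% of all) and 27.8% of very wide i∆HSA peaks (17.7% of all), against 11.9% of genome windows. Among promoter peaks it was present in 57.7% of very wide iBRG1 peaks (48.1% of all promoter peaks) and 61.6% of very wide i∆HSA peaks (51.8%). GGAATG, the site of TEAD factors, the DNA-binding partners of YAP, was present in 42.7% of very wide iBRG1 peaks (46.2% of all) and 42.6% of very wide i∆HSA peaks (40.4% of all), and in 42.5% of genome windows.

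The RUNX site TGTGGTT was present in 17.6% of very wide iBRG1 peaks (17.9% of all) and 14.1% of very wide i∆HSA peaks (15.9% of all), and in 18.3% of windows. The cyclic AMP response element TGACGTCA was present in 0.622% and 1.02% (0.628% and 0.757% of all). A strict CTCF core, CC and AGGGGGC separated by 3 arbitrary bases, was present in 0.622% and 1.31% (0.876% and 1.38% of all), against 0.501% of windows. A match is a run of letters and not evidence that the factor was bound.

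Most very wide peaks met no peak of the other list, and those that did mostly met a narrower one. Of the very wide iBRG1 peaks, 489 overlapped an i∆HSA peak by at least 1 bp, 33.8% (31.4 to 36.2), where all iBRG1 peaks gave 20.5%. Of the very wide i∆HSA peaks, 459 overlapped an iBRG1 peak, 33.5% (31.0 to 36.0), where all peaks gave 19.6%. A wide peak meets other peaks more readily by its length. Asked of the central 200 bp alone, the shares were 20.0% (18.0 to 22.1) in iBRG1, where all peaks gave 17.7%, and 22.0% (19.9 to 24.3) in i∆HSA, where all peaks gave 16.9%.

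Overlap at the centre did not keep rising with width. It was 27.1% of iBRG1 and 26.9% of i∆HSA peaks of 2000 to 2500 bp, and 12.7% (8.47 to 18.7) and 13.3% (8.46 to 20.2) of peaks of 5000 bp or more. By bases, the other list covered 16.1% of the very wide iBRG1 sequence (18.3% for all iBRG1 peaks) and 16.6% of the very wide i∆HSA sequence (17.6% for all).

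**Figure D4:**
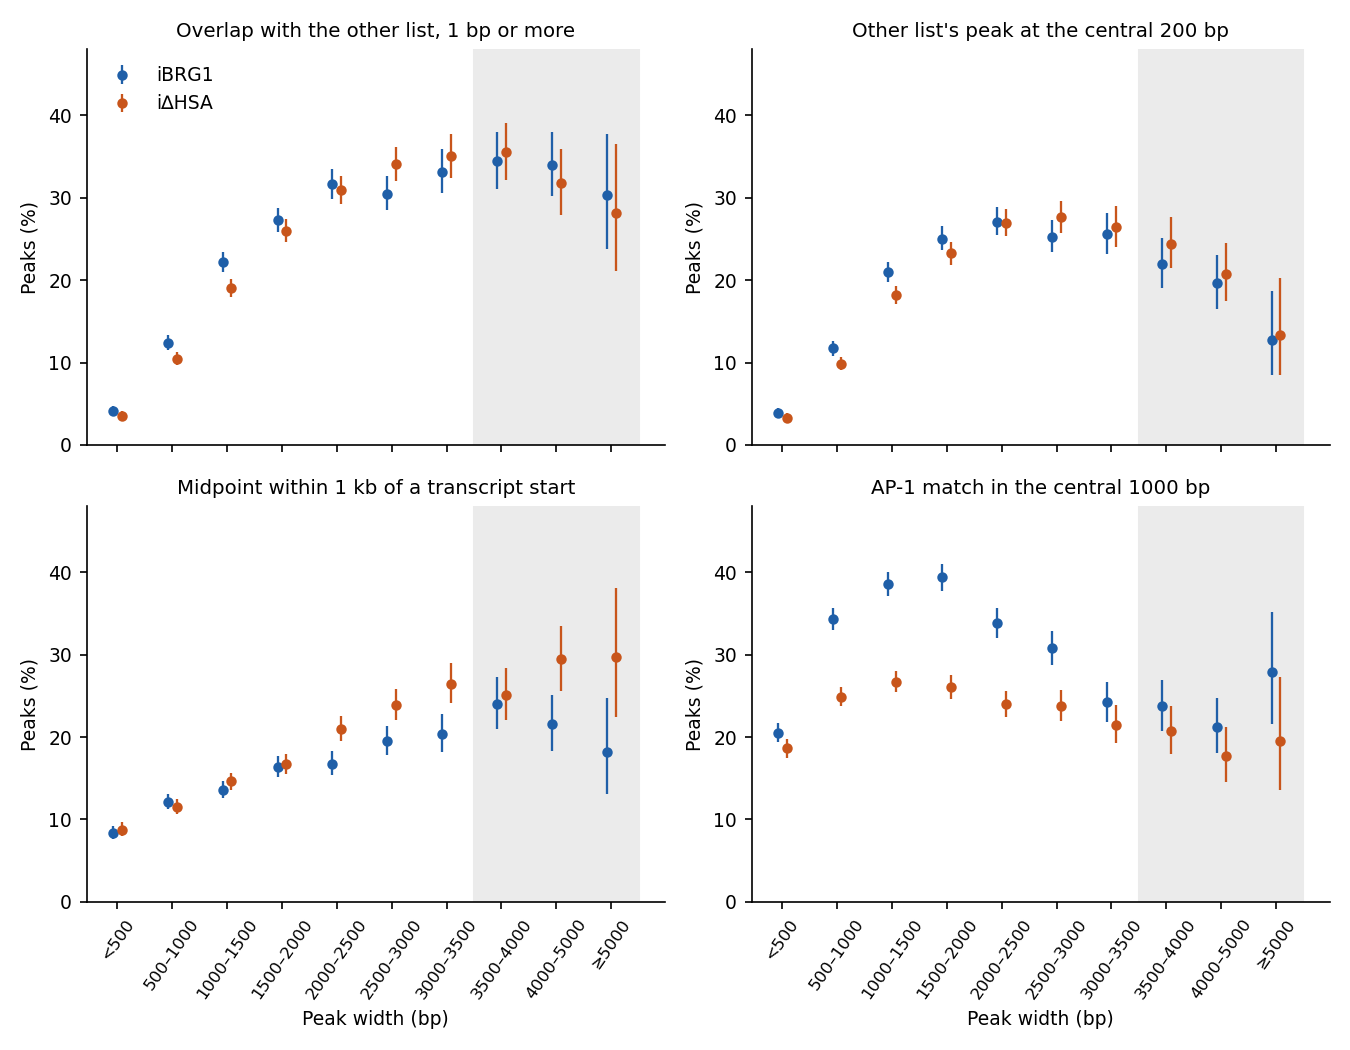
Percentage of peaks, by width class (bp), that overlapped the other list by 1 bp or more, that met it in their central 200 bp, that had their midpoint at a promoter, and that held an AP-1 match in their central 1000 bp, for iBRG1 (blue) and i∆HSA (orange). Bars are 95% Wilson intervals and the grey band marks widths of 3500 bp or more, where central overlap falls to 12.7% and 13.3% in the widest class.

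Where a very wide peak was shared, the partner covered a part of it. The median cover was 45.8% of the very wide iBRG1 peak (quartiles 29.7 and 67.7) and 49.3% of the very wide i∆HSA peak (31.3 and 67.9). The partner had a median width of 2314 bp for iBRG1 and 2298 bp for i∆HSA, and the very wide peak was 1.79 and 1.74 times as wide at the median. The partner was under 1000 bp in 51 and 49 cases. A very wide peak seldom stood for several peaks of the other list, since 3 iBRG1 and 5 i∆HSA peaks met 2 of them and none met more.

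Shared members scored higher than unshared ones in each list. The median score was 4 (4 to 5) against 3 (3 to 3) in iBRG1 and 7 (6 to 8) against 4 (4 to 4) in i∆HSA. In i∆HSA the shared members also held an AP-1 match at the centre more often, 26.1% (22.3 to 30.3) against 16.1% (13.9 to 18.6). In iBRG1 these shares were 26.4% (22.7 to 30.5) and 21.6% (19.1 to 24.3), with intervals that overlapped. Promoter shares were close, 23.7% and 21.7% in iBRG1 and 27.7% and 26.8% in i∆HSA. Peaks of all widths were not split into shared and unshared in this way, so these differences may not be particular to very wide peaks.

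At 74 loci a very wide iBRG1 peak overlapped a very wide i∆HSA peak. They were 5.11% (4.09 to 6.37) of the very wide iBRG1 peaks, where 1.92% of all iBRG1 peaks met a very wide i∆HSA peak, and 5.39% (4.32 to 6.72) of the very wide i∆HSA peaks, where the value over all peaks was 1.94%. The common stretch had a median of 3619.5 bp (range 749 to 4411) and reached 3000 bp at 56 of the 74. Both midpoints were intronic at 35 loci, both at a promoter at 13 and both intergenic at 11. A coding start lay inside both peaks at 25.

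**Figure D5:**
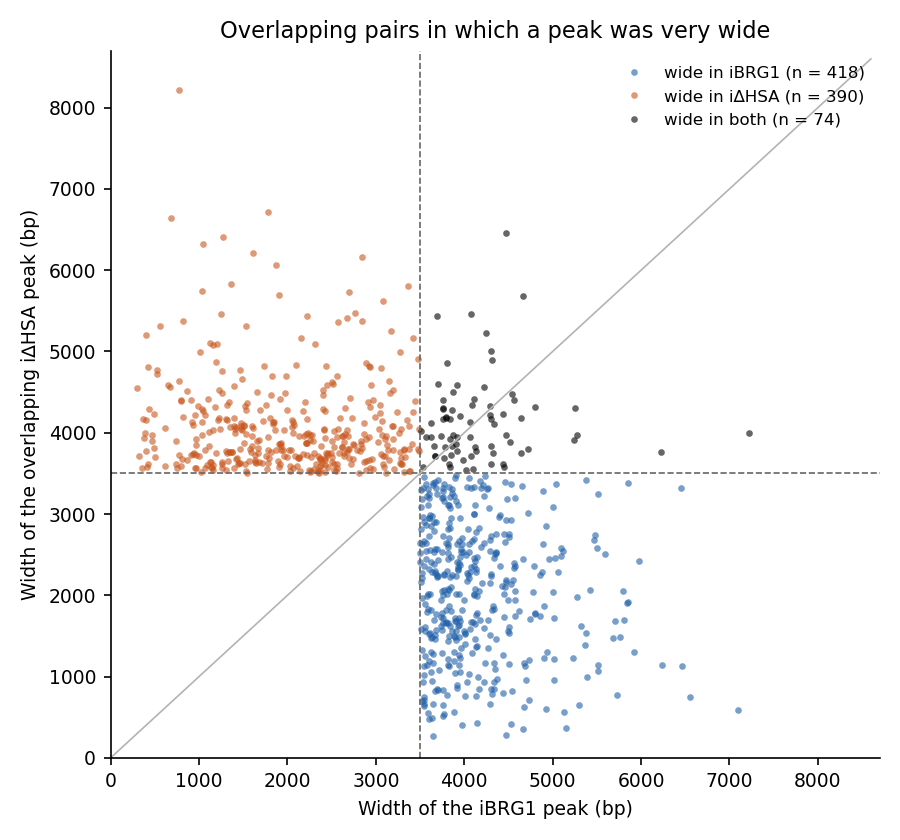
Width in bp of each overlapping pair of peaks in which at least 1 was very wide, iBRG1 on the horizontal and i∆HSA on the vertical axis, with dashed lines at 3500 bp and a grey line of equal width. The 418 pairs wide in iBRG1 (blue) and 390 wide in i∆HSA (orange) far outnumber the 74 wide in both (black).

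The longest common stretch, 4411 bp, lay at MED7, which encodes a subunit of the Mediator complex. The iBRG1 peak there was 4469 bp wide with a score of 2, and the i∆HSA peak 6455 bp with a score of 9. At AGBL3 the peaks were 4557 bp (score 3) and 4408 bp (score 11) and shared 4391 bp, so that both edges nearly coincided. At the ZDHHC11 locus, where the annotated BRD9 gene also runs, the peaks were 5254 and 4303 bp wide and shared 4276 bp, with scores of 3 and 2. At C2 they were 4442 and 4235 bp wide and shared 4209 bp.

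Among the 15 longest common stretches, promoter peaks in both lists were also seen at the dynactin subunit DCTN6, at ZNF335 and at MPC1, a subunit of the mitochondrial pyruvate carrier. Both midpoints were intronic at ANKRD46, ROBO1 (a guidance receptor), FGGY and SAMD9, and at a noncoding transcript 508253 bp from PCDH9. At FGGY and SAMD9 the start of the gene lay inside both peaks. Both peaks were intergenic near TRPS1, a GATA-type repressor, and near EPHA6, whose start was 1062562 bp away. At FGD6 the iBRG1 midpoint was at the promoter and the i∆HSA midpoint in the intron. Common stretches of these loci were 3911 to 4307 bp long.

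Of 20136 coding genes, a coding start lay in a very wide peak for 419 in iBRG1 and 454 in i∆HSA, and for 33 in both. No such overlap is given for peaks of any width, so 33 cannot be called many or few. The 33 included the RNA helicase DDX3X, ATP citrate lyase (ACLY), prothymosin alpha (PTMA), the ubiquitin ligase RAD18, the endosome tether EEA1, and MDC1 and TUBB, a DNA damage mediator and a beta tubulin whose starts share a peak. Also in both was KLF5, a zinc finger factor of epithelial cells. These were picked from the 33 after their names were seen. At KLF5 the peaks were 3776 bp (score 17) and 3693 bp (score 32) wide and shared 3659 bp. At PTMA they were 4805 and 4319 bp wide and shared 2152 bp, with GC of 68.0% and 58.4%.

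Long genes carried very wide peaks more often than short ones. A very wide peak lay within 5 kb of 1137 of 20136 coding genes in iBRG1, 5.65%, and of 1176 in i∆HSA, 5.84%, with 188 genes in both. Peaks of any width lay near 8869 and 9886 genes, and their overlap is not given. Genes were split by length into 4 classes of nearly equal number. The share with a very wide peak was 2.19% and 3.02% in the shortest class and 11.7% and 10.6% in the longest. Peaks of any width had the same order, near 1066 of 5034 genes of the shortest and 3880 of 5033 of the longest class in iBRG1, and near 1277 and 3829 in i∆HSA. At least 2 very wide peaks were found at 85 of the 20136 genes in iBRG1 and 60 in i∆HSA. The most at any gene were 4, at PCDH9, SIPA1L1 and TCF12 in iBRG1 and at FMNL2, a formin that builds actin filaments, in i∆HSA. These genes were 315 to 928 kb long. FMNL2 had no very wide peak among its 8 iBRG1 peaks, and TCF12, a helix-loop-helix factor, had none among its 5 i∆HSA peaks.

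Genes of 10 lists that fit the biology of SWI/SNF in this line were looked up at the same distance, and each count rests on a few genes. Among 29 SWI/SNF subunit genes, 3 had a very wide iBRG1 peak (ARID1B, BRD9 and SMARCD3) and 4 a very wide i∆HSA peak (ARID1B, ARID1A, BCL7C and BRD9). The shares were 10.3% (3.58 to 26.4) and 13.8% (5.50 to 30.6), and the intervals held the 5.65% and 5.84% of all coding genes. ARID1B and ARID1A encode the alternative ARID subunits of the BAF complex and BRD9 a bromodomain subunit of the noncanonical complex. The BRD9 peaks were those of the ZDHHC11 locus above, 36701 bp (iBRG1) and 37204 bp (i∆HSA) from the BRD9 start. The ARID1B locus carried 3 very wide i∆HSA peaks, one over its start (3537 bp, score 6) and 2 in introns, and 1 iBRG1 peak of 3762 bp (score 9), which overlapped an i∆HSA peak of 4164 bp. At SMARCD3 the iBRG1 peak was 4728 bp wide, and an i∆HSA peak of 714 bp lay inside it.

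Among 30 receptor tyrosine kinase genes, which are long at a median of 123608 bp, 3 had a very wide iBRG1 peak (ERBB4, IGF1R and MET) and 7 a very wide i∆HSA peak (ERBB4, IGF1R, EGFR, ROR2, INSR, DDR1 and DDR2), 10.0% (3.46 to 25.6) and 23.3% (11.8 to 40.9). Over all coding genes the shares were 5.65% and 5.84%, and over the longest class of genes 11.7% and 10.6%. The i∆HSA peak in IGF1R, the receptor of insulin-like growth factor, was 4066 bp with a score of 43, and the one in EGFR was 3617 bp with a score of 18. In ERBB4, a neuregulin receptor, an iBRG1 peak of 4262 bp had a score of 18 and met no i∆HSA peak. At INSR and DDR1 the i∆HSA peaks lay over the gene start, while in the others they were intronic.

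Among 23 genes of the actin cytoskeleton, 4 had a very wide iBRG1 peak (the myosins MYH9 and MYH10, the calponin CNN3 and the filamin FLNA) and 2 a very wide i∆HSA peak (VCL, which encodes vinculin, and FLNC). These were 17.4% (6.98 to 37.1) and 8.70% (2.42 to 26.8), beside 5.65% and 5.84% of all coding genes. Being counted within 5 kb, the CNN3 and FLNA peaks lay wholly upstream of the gene, and the FLNC peak lay wholly past its end. At MYH9 the iBRG1 peak was at the start of the gene and 28.4% of it was covered by an i∆HSA peak of 2639 bp. Among 15 AP-1 factor genes, 2 had a very wide iBRG1 peak, 13.3% (3.74 to 37.9) beside 5.65% of all coding genes. These lay over the start of JUNB (3935 bp, score 4) and upstream of FOSL1 (4079 bp, score 3). No AP-1 factor gene had a very wide i∆HSA peak, although 6 had an i∆HSA peak of some width, and the interval for 0 of 15 reaches 20.4%.

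Among 36 matrix genes the count was 1 in iBRG1 (LAMC1, a laminin chain) and 2 in i∆HSA (THBS1 and COL1A1, both at the gene start). Among 13 genes of YAP/TEAD signalling it was 2 (TEAD1 and LATS2) and 2 (TEAD2 and ANKRD1), and among 24 of TGF-beta and BMP signalling 2 (BMPR2 and SMAD4) and 2 (TGFBR3 and ACVR1). Among 20 adhesion genes it was 1 (ITGB8) and 1 (CAV2). Among 24 nuclear receptor genes it was 0 and 1 (RORA), and among 20 ribosomal protein genes 0 and 2 (RPL10 and RPS18). For these 6 lists the intervals were wide and held the value over all coding genes. The intervals of receptor tyrosine kinases in i∆HSA and of actin genes in iBRG1 did not hold it. With many lists looked up in both constructs, and chosen with earlier results known, some intervals can miss it by counting error. No list was tested.

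Very wide peaks occurred on every chromosome but Y. They were 4.46% (X) to 7.99% (chromosome 19) of the iBRG1 peaks of a chromosome, and 3.65% (chromosome 4) to 7.42% (chromosome 17) of the i∆HSA peaks. Near-identical copies, at least 95% alike over at least 50% of the peak, were found elsewhere in the genome for 2.00% of very wide iBRG1 peaks (2.57% of all) and 3.35% of very wide i∆HSA peaks (3.11% of all). Reads of these members could have come from more than 1 place. The nearest other peak of the same list was a median of 23.8 kb away in iBRG1 (28.8 kb over all peaks) and 21.8 kb in i∆HSA (25.8 kb), and within 10 kb for 26.0% and 25.4% of members. The lower quartile of this distance was 9757 and 9859 bp in members, beside 11342 and 10767.5 bp over all peaks.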

How the data were processed

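CUT&RUN was performed on 4 samples, and the deposited files hold 1 peak list per construct with no replicate column. The authors' methods name cutadapt for trimming, Bowtie2 for alignment, Picard for duplicate removal and MACS2 (2.2 in the submitters' processing notes) for peak calling, followed by removal of negative-control peaks and of low scores. The deposited score is a whole number of unstated scale and still includes values under 5. The start and end of each peak are deposited as BED positions. Whether replicates were pooled is not stated, and the depth behind the peaks is unknown. Serial numbers in the peak names reach 340229 in iBRG1 and 286854 in i∆HSA, of which the lists hold 7.12% and 8.84%.

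The notes name hg19, and 0 peaks ended beyond a GRCh37 chromosome. Width was end minus start, and positions are printed 1-based. Features, in the order promoter, UTR, exon, intron, downstream and intergenic, came from GENCODE release 44 lifted to GRCh37. A peak was given the coding gene it overlaps or, failing that, the one with the nearest start. The named loci were the 10 widest and 5 highest-scoring very wide peaks of each list, the 3 on either side of the threshold, the 15 longest common stretches and very wide peaks within 5 kb of listed genes. Sequences came from the longest common stretches, down to rank 29, that held a single coding start or an AP-1 match. The repeat sequences came from the members with the most AP-1 matches. All windows avoided exons. Members, lists and the naming rule were chosen with earlier results of these data known. Python 3.11.15, pandas 2.3.3, pysam 0.24.0, scipy 1.17.1, matplotlib 3.10.9 and minimap2 2.31-r1302 (near-identical copies) were used. Overlap and motif code was tested on simulated data. Shares have Wilson intervals and medians order-statistic intervals at 95%. Base composition left out 24 i∆HSA peaks on masked sequence, none of them a member. Some sequences and a gene named at these loci are not reported here.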

Additional observations from a re-analysis of the deposited data

How the results depend on the processing

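With 1 list per construct and no replicate column, no replicate could be left out. No paired analysis was possible because the lists carry no replicate numbers. Of 67 values recomputed, 39 stayed within the interval of the reported value, or within 1.5 times for counts, and 28 moved, and the cause was not tested. Leaving out peaks under 25% GC moved no value.

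Widths of at least 3000 bp gave 2637 iBRG1 and 2620 i∆HSA peaks and 247 loci in both lists. Widths of at least 4000 bp gave 731 and 638 peaks and 20 loci. Shares and medians at both widths stayed within the intervals. A score of at least 5, required of all peaks in both lists, gave 504 and 759 peaks and 33 loci, with median scores of 7 and 8. Overlap with a lower-scoring peak of the other list was thus not counted as sharing. Under that score, shared members were 37.9% in iBRG1 and 26.2% in i∆HSA (34.8% and 21.9% of all peaks), AP-1 matches 26.6% in iBRG1 (45.5% of all), promoters 29.8% in i∆HSA (20.1% of all) and GC 38.4% in iBRG1 (38.4% in all), so that neither the higher GC nor the higher sharing of very wide iBRG1 peaks (interval 33.8% to 42.2%) was seen there.

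Sharing by a reciprocal 50% was 14.9% and 15.9% (12.3% and 11.7% of all), and at the central 200 bp 20.0% and 22.0%. Promoter shares were 39.8% and 42.4% with 3 kb (26.5% and 29.1% of all), and 15.1% and 19.2% with coding transcripts (8.43% and 9.68% of all). With any base of the peak, a share that rises with width, they were 39.8% and 42.8% (19.8% and 21.7% of all). AP-1 in the central 500 bp was 12.4% and 9.77% (19.6% and 13.9% of all). Depth is unknown, so absence from a list does not show that the construct was absent.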
